A study of Mus musculus with 8 samples.

Results

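Auts2, a gene of 1106 kb on the minus strand of mouse chromosome 5 (mm10, chr5:131437333-132543344, ENSMUSG00000029673.17), held or neighboured 60 of the 46070 regions in which chromatin immunoprecipitation followed by sequencing (ChIP-seq) gave a peak for NFIA, NFIB or NFIX. A region was formed from peaks that shared at least 1 bp. It was counted at Auts2 when the summit of one of its peaks lay in the gene body, or when the nearest transcription start site (TSS) of a protein-coding gene within 100 kb of that summit belonged to Auts2. The regions were thus selected on the deposited peaks, so their number and their presence in each list are given as a description and not tested. Of the 60 regions, 57 lay in the gene body, 1 lay just past the 3′ end and 2 lay upstream of the 5′ end. None of them was shared with another protein-coding gene under the same rule.

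The cells were granule neuron progenitors, the dividing precursors of cerebellar granule neurons, isolated at postnatal day 7. Each of the 3 factors had 2 libraries. The first came from CD1 mice, an outbred stock, and the second from a mixed background that the sample labels liken to CD1, although the series text speaks of CD1 mice alone. Libraries are named by factor and background (NfiA CD1, NfiA Mixed and so on), and the 2 Input samples were not analysed here. The antibodies were Abcam ab41851 for NfiA and Sigma Aldrich SAB1401263 for NfiX. For NfiB the sample labels name Novus Biologicals NBP1-81000 and the series text names Sigma HPA003956. By these labels the 2 libraries of a factor came from different mice. How many animals or preparations went into each is not said, so a spread between them may be biological or technical. Peak lists carry no expression values, and the cell type was not checked against markers.

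AUTS2 is a large, mostly nuclear protein of developing neurons. In the nucleus it joins a form of Polycomb repressive complex that, through casein kinase 2 and the acetyltransferase p300, is linked to active rather than repressed genes. In the cytoplasm it acts on Rac signalling and the actin cytoskeleton in neurite growth and neuronal migration. Disruption of the human gene is a cause of a neurodevelopmental syndrome. The NFI proteins are transcription factors that bind a palindrome of TTGGC arms as dimers, and are known for their part in the differentiation and migration of granule neurons.

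No genome sequence was used here, so bases could be read only where a region lay inside an annotated transcript. That held for 1 of the 60 regions, in intron 4 of Auts2 within Gm42991 (chr5:131972050-131975886, minus strand), a gene model of unsettled type. The 300 bases around its summits (chr5:131972355-131972654, plus strand, mm10, read from the GENCODE transcript) are shown because they are the only bound bases of the locus in hand. Capitals mark the 98 bases from the first to the last summit.
Auts2 intron 4 region: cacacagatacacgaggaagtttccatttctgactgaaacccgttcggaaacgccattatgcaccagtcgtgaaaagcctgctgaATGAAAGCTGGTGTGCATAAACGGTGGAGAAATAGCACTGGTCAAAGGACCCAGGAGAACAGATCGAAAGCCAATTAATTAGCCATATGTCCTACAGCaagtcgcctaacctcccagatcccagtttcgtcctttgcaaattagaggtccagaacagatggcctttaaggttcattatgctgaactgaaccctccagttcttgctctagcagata
The whole region (chr5:131972292-131972762) held no full NFI palindrome, that is TTGGC and its reverse complement GCCAA with 5 bases between them, and no element TTGGCA, on either strand. Of the 3438 regions of the series whose summit and the 50 bp to either side lay within an annotated exon, 1.05% held the palindrome there and 25.2% the element TTGGCA, which can overlap the palindrome. It held 1 single arm, TTGGC, read as GCCAA on the plus strand and inside the summit span. That search was added after the sequence had been seen, and 50.6% of the 3438 regions held the arm. This region had peaks in 4 libraries. Its fold, the fragments at a summit over the local background with 1 added to each, was 5.97 in CD1 and 6.04 in Mixed for NFIA, and 5.29 in CD1 and 5.39 in Mixed for NFIB, and neither NfiX list had a peak there.

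Regions with a peak in all 6 libraries, called common below, numbered 16 of the 60 at Auts2, a share of 26.7%. Over all regions of the series the share was 13.2%, and in the bodies of other protein-coding genes of 500 kb or more it was 14.5% (634 of 4361 regions). Counted within the Auts2 body alone, the share was 26.3%. Among the 229 other genes of that length the median share was 13.5% and the upper quartile 20%, and 23 of them lay above Auts2. No other protein-coding gene had as many common regions under the same rule. The next were Gm20388 with 14, Tenm2 with 13 and Dab1 with 11, named here after their counts were seen. Gm20388 is a gene model of 4435 kb. This first place rested on the shortest list: with NfiX CD1 left out, Auts2 had 29 regions with a peak in all remaining libraries and Gm20388 had 42. Across the series that setting gave 25.3% such regions, and at Auts2 48.3%. With every list cut to the 7497 peaks of the shortest, Auts2 had 9 common regions of 25 (25.6% of all regions under that setting) and Gm20388 had 10.

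**Figure D1:**
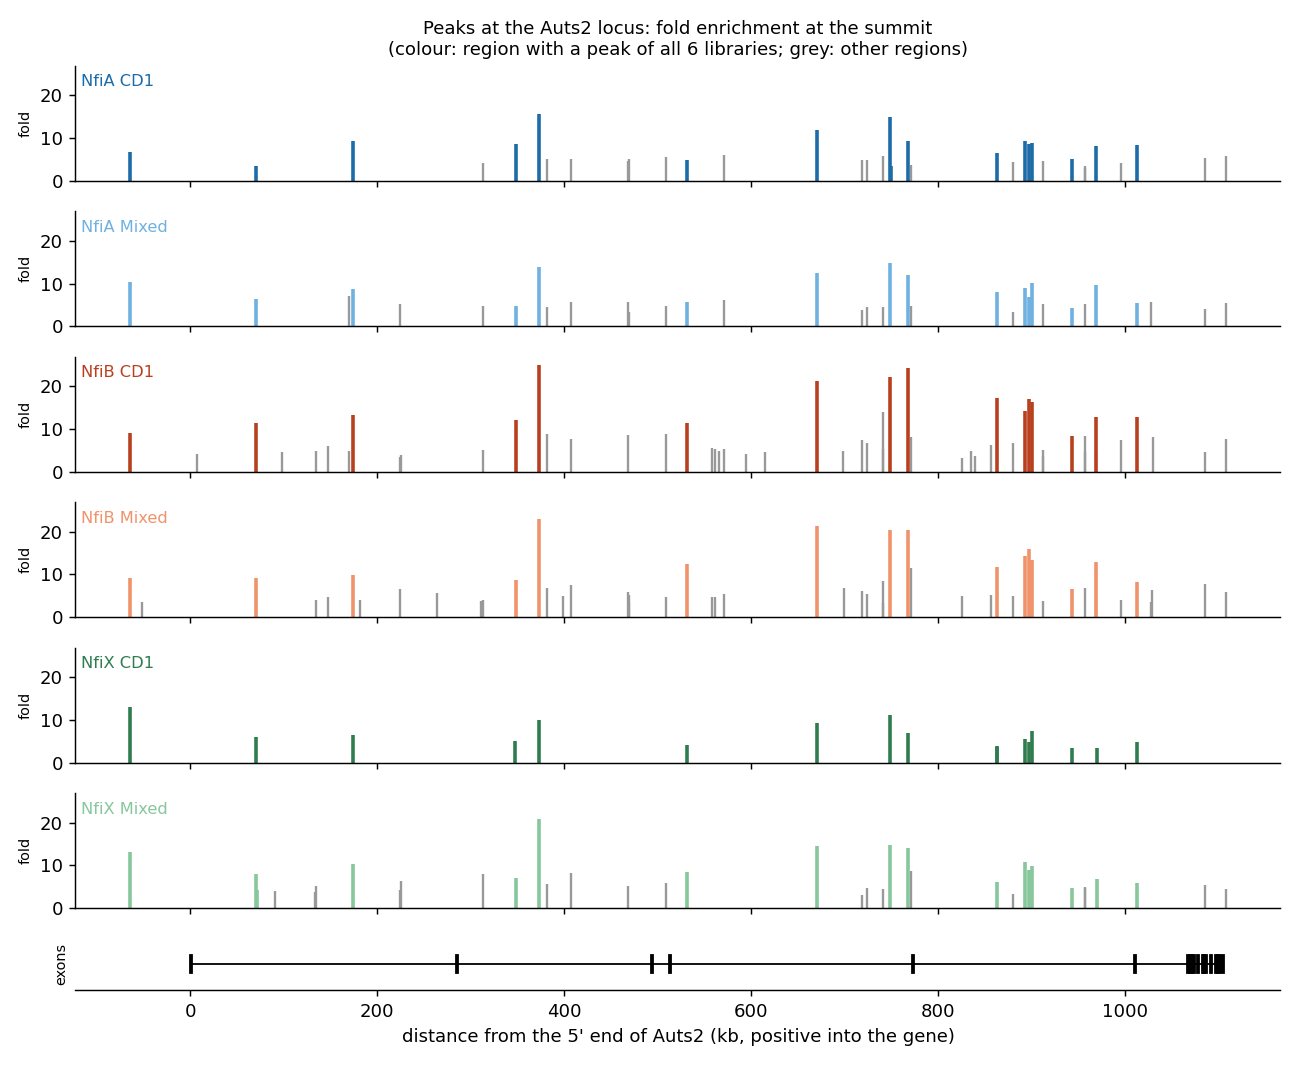
Fold enrichment at each peak summit (vertical axis, fold over local background) against distance from the 5′ end of Auts2 (horizontal axis, kb), 1 track per library, with the 19 exons of the reference transcript below. Coloured lines are peaks of the 16 common regions and grey lines are the other peaks, and the tallest coloured lines stand at 373, 670, 749 and 768 kb.

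The gene body held 57 regions, or 51.5 per Mb, against a median of 21.03 per Mb in 229 other protein-coding genes of 500 kb or more and 17.3 per Mb over the annotated span of the chromosomes. Among the 230 long genes, Auts2 was the 11th by this density. It was the 3rd by density of common regions, at 13.56 per Mb against a median of 2.73. The 2 long genes above it in that respect, named after their values were seen, were Kirrel3 (14.5 per Mb) and Clstn2 (13.59 per Mb, 8 common regions in 589 kb). By number of common regions in the body Auts2, with 15, was first of the 230. Only 4 long genes held more regions of any kind in their bodies, and they were longer, between 1612 and 4435 kb (Gm20388, Fgfr2, Nrxn3 and Macrod2).

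**Figure D2:**
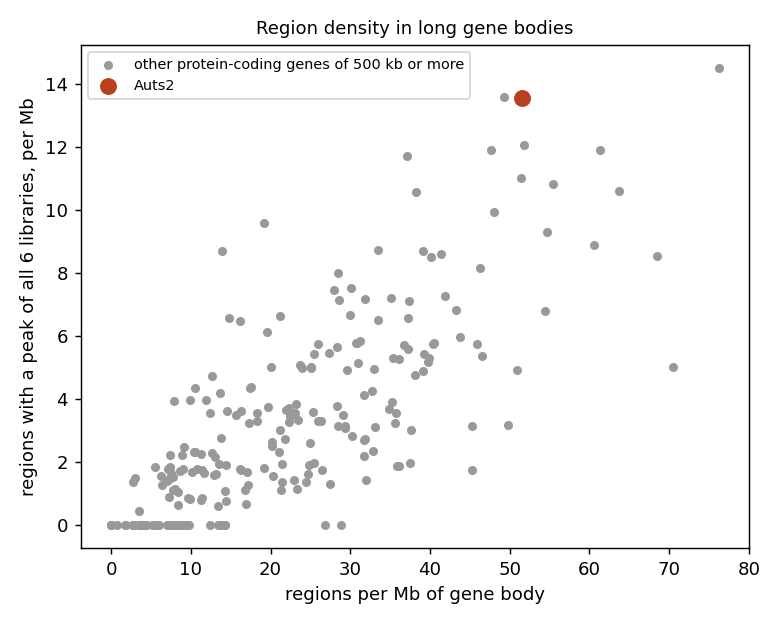
Regions per Mb of gene body (horizontal axis) against common regions per Mb (vertical axis) in 230 protein-coding genes of 500 kb or more, 1 point per gene. Auts2, the large point, stands at 51.5 regions and 13.6 common regions per Mb.

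The same was seen list by list. NfiA CD1 had 35 peaks at Auts2, 0.206% of its list (95% Wilson interval 0.148 to 0.286). NfiA Mixed also had 35, or 0.149% (0.107 to 0.207). NfiB CD1 had 54, or 0.148% (0.114 to 0.193), and NfiB Mixed had 51, or 0.153% (0.117 to 0.201). NfiX CD1, whose list is the shortest, had 17, or 0.227% (0.142 to 0.363), and NfiX Mixed had 36, or 0.168% (0.121 to 0.232). These intervals cover counting error only, and all 6 overlap one another. The shares were not tested against each other. Peaks in the body stood at 14.5 per Mb in NfiX CD1 and 47.02 per Mb in NfiB CD1, which was 5.13 and 3.43 times the genome-wide density of the same list. Over the 6 libraries this ratio ran from 3.37 in NfiA Mixed to 5.13 in NfiX CD1. Each library placed Auts2 at a percentile of 96.9 to 98.3 among the other long genes.

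Most regions of Auts2 were either shared by many libraries or by few. Peaks of 5 libraries were found in 13 regions and of 6 libraries in 16, while only 4 regions had peaks of 3 libraries and 2 had peaks of 4. In the whole series the shares for exactly 5, 4, 3, 2 and 1 libraries were 13.4%, 11.8%, 12.5%, 17.3% and 31.9%, against 21.7%, 3.33%, 6.67%, 20% and 21.7% at Auts2. All 13 regions with 5 libraries lacked the same one, NfiX CD1, the shortest list. So did 5581 of the 6167 regions of the series with exactly 5 libraries, and this pattern took 12.1% of all regions.

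**Figure D3:**
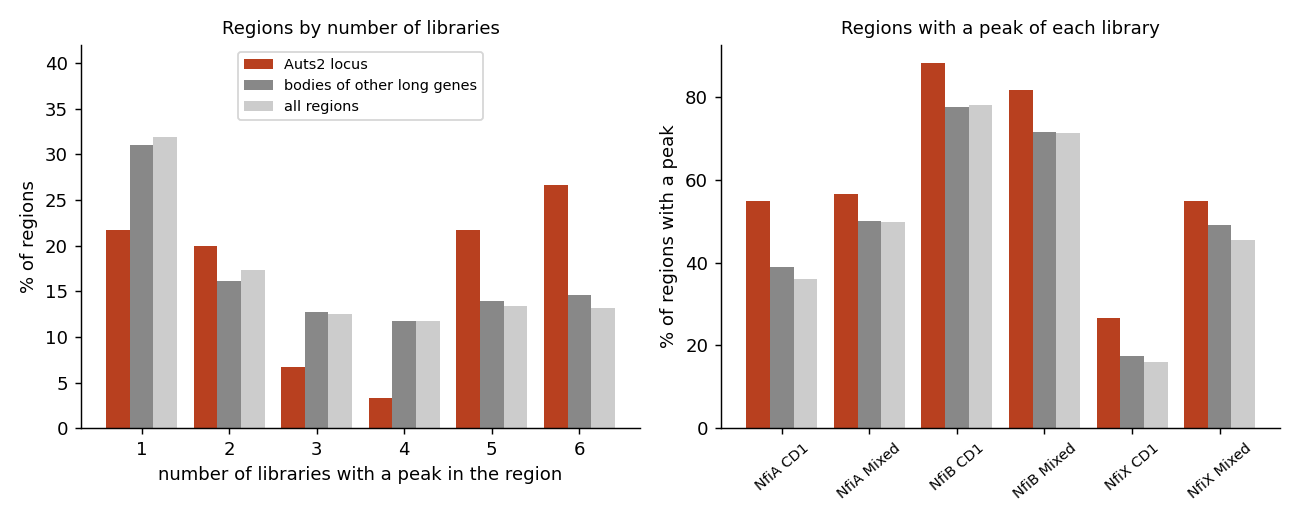
Left, regions by the number of libraries with a peak in them (% of regions), and right, regions with a peak of each library (%), for the 60 regions at Auts2, 4361 regions in the bodies of other long genes and all 46070 regions. The Auts2 bars stand above the other bars at 2, 5 and 6 libraries (20%, 21.7% and 26.7%) and below them at 1, 3 and 4.

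By factor, at least 1 NfiB library had a peak in 59 of the 60 regions, 98.3%, where 92.9% of all regions of the series and 92.4% of those in other long genes had one. NfiB CD1 had a peak in 53 of the 60 regions (78.3% of all regions of the series) and NfiB Mixed in 49 (71.3%). Both NfiA libraries had a peak in 31 regions, where 29.8% of all regions had both, and neither had one in 24, where 43.8% of all regions had none. NfiA CD1 had one in 33 (36% of all regions) and NfiA Mixed in 34 (50%). NfiX CD1 had one in 16 (16%) and NfiX Mixed in 33 (45.4%). All 16 regions with an NfiX CD1 peak were common ones, as were 82.4% of the 7353 regions of the series with such a peak. The only region without NFIB lay in intron 1, 90.9 kb from the 5′ end (chr5:132452385-132452585), with a single NfiX Mixed peak of fold 3.91, where 7.07% of all regions lacked both NfiB libraries. The higher shares at Auts2 are in the same direction in all 6 libraries, but the 60 regions belong to 1 locus and are not replicates.

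The strongest region of the locus lay in intron 2, 373 kb into the gene (chr5:132169912-132170661). NFIB folds there were 24.99 in CD1 and 23.1 in Mixed. NFIA folds were 15.6 and 14.0, and NFIX folds were 10.02 and 20.98, CD1 first. Both NfiB libraries were highest and NfiX CD1 was lowest, while NfiX Mixed lay close to NfiB. The whole-number fragment counts behind these folds, recovered from the deposited fold and p, were 152 and 145 for NFIB, 70 and 90 for NFIA and 43 and 96 for NFIX. By mean percentile of fold within the 6 lists (96.9) it ranked 301st of the 6062 common regions of the series.

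In intron 4 a region 749 kb into the gene (chr5:131794009-131795355) held the most fragments. NFIB folds were 22.3 in CD1 and 20.4 in Mixed, NFIA folds were 14.8 in both, and NFIX folds were 11.2 in CD1 and 14.7 in Mixed, with 61 fragments at the summit in NfiX CD1 and 179 in NfiB CD1. The NfiA and NfiX Mixed values were nearly equal here and the NfiB values stood above them. At 1347 bp it was also the widest common region of the locus, and NfiA CD1 had a second, weaker peak within it, of fold 3.45.

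A further region of intron 4, 670 kb in (chr5:131873016-131873571), had folds of 11.9 and 12.6 in NfiA, 21.3 and 21.4 in NfiB and 9.34 and 14.6 in NfiX, CD1 first. The 2 libraries of NFIA and of NFIB differed little there and those of NFIX more. A region at 768 kb, close to exon 5 (chr5:131774965-131776069), had folds of 9.38 and 11.9 in NfiA, 24.2 and 20.5 in NfiB and 7.00 and 14.1 in NfiX. These 4 regions had mean percentiles of 90.1 to 96.9, and the other 12 lay between 36.1 and 86.8.

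Intron 5 held the densest group. It had 17 regions in 237 kb, 7.18 per 100 kb, and 6 of the 15 common regions of the body. Intron 4 had 16 regions in 260.2 kb, 4 of them common. Introns 1 and 2, the 5′ part of the gene, had 11 and 8 regions, 3.90 and 3.84 per 100 kb, with 2 common regions each. Within intron 5, 3 common regions stood within 8 kb of one another at 893, 897 and 900 kb. At 900 kb (chr5:131643134-131643653) the folds were 8.86, 10.2, 16.3, 13.3, 7.35 and 9.82 in the order NfiA CD1, NfiA Mixed, NfiB CD1, NfiB Mixed, NfiX CD1 and NfiX Mixed. At 897 kb (chr5:131645340-131646343) they were 8.69, 6.90, 17.1, 15.9, 4.92 and 8.95. At 893 kb (chr5:131650364-131650974) they were 9.20, 8.95, 14.3, 14.2, 5.53 and 10.7. All 3 showed NfiB above the other libraries and NfiX CD1 lowest.

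The remaining common regions of the body had mean percentiles of 36.1 to 81.9. The highest of these, at 174 kb, stood above the regions at 893 kb (81.2) and 897 kb (75.3). At 943 kb (chr5:131600326-131600826) the folds were 4.99, 4.25, 8.24, 6.61, 3.40 and 4.61, the lowest mean percentile of the 16. At 969 kb (chr5:131573514-131574233) NfiX CD1 had a fold of 3.51, near the bottom of its own list (percentile 2.08), while both NfiB libraries stood at 12.7 and 12.9. At 70.2 kb (chr5:132472315-132473498) NfiA CD1 was lowest, at 3.54, against 11.3 in NfiB CD1. The region at 863 kb ranged from 3.87 to 17.4, that at 531 kb from 4.11 to 12.5, that at 348 kb from 4.62 to 12.1, that at 174 kb from 6.39 to 13.2 and that at 1012 kb from 4.77 to 12.9.

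The upstream common region differed from the others in 2 respects. It lay 64.1 kb beyond the 5′ end (chr5:132607335-132607739), outside any protein-coding gene. NFIX folds were 12.9 in CD1 and 13.3 in Mixed, NFIB folds were 8.95 and 9.19, and NFIA folds were 6.70 and 10.4. Here the NfiX libraries were highest, the only such case among the 16, where 15.8% of all common regions had an NfiX library highest. Its folds rested on few fragments, 12 to 25 at the summit, over a local background that equalled the lowest of each list (0.856 in NfiX CD1 to 1.39 in NfiB Mixed). The 6 summits lay within 17 bp, the narrowest spread of the 16 regions, whose median was 79.5 bp. Over all common regions the median spread was 62 bp.

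**Figure D4:**
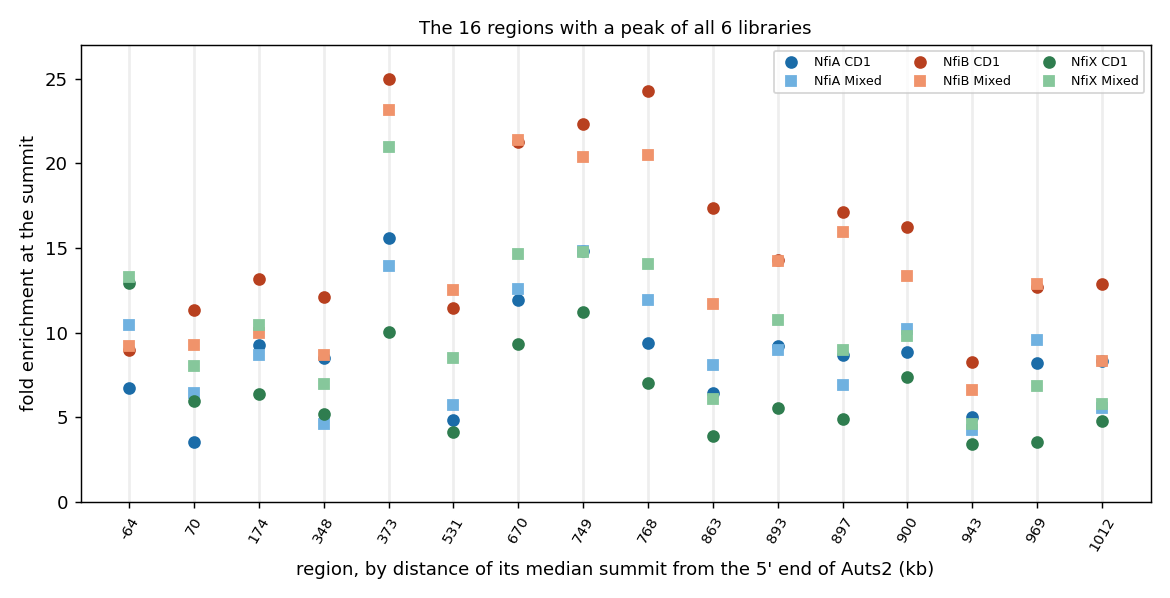
Fold enrichment (vertical axis) of the 6 libraries at the 16 common regions, ordered by distance from the 5′ end of Auts2 (horizontal axis, kb, negative upstream), circles for CD1 and squares for Mixed. NfiB points lie highest in 15 of the 16 regions and NfiX points highest at 64.1 kb upstream.

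Over the 16 common regions the fold had medians of 13.7 and 12.7 for NFIB, 8.59 and 8.80 for NFIA, and 5.74 and 9.39 for NFIX, CD1 first. The same medians over all common regions of the series were 11.9 and 10.4 for NFIB, 7.96 and 8.61 for NFIA, and 6.13 and 9.30 for NFIX. An NfiB library was highest in 15 of 16 regions, against 78.6% of all common regions, and NfiX CD1 lowest in 13, against 64.9%. The fold was higher in Mixed than in CD1 at 16 of 16 regions for NFIX, with a median ratio of 1.57, where all common regions had 1.47. For NFIB it was higher in CD1 at 12 of 16 with a median ratio of 0.878 (0.881 over all common regions), and for NFIA at 8 of 16, with 1.03 (1.07). Folds are each list's own measure and these comparisons were not tested. With 1 library per factor and background, a difference of background cannot be told apart from one of library.

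Regions of the locus without a peak in NfiX CD1 had lower folds. Common regions are by definition also in the shortest list, and the 2 classes were not compared in this way over the series. The 13 regions with all the other libraries had folds of 2.98 to 14.0, with a median of 5.28 against 9.28 in the common regions. The highest single fold among them was in intron 4 at 741 kb (chr5:131801878-131802369), which had NFIB folds of 14.0 in CD1 and 8.37 in Mixed, NFIA folds of 5.71 and 4.55, and 4.40 in NfiX Mixed. At 771 kb (chr5:131772613-131773037), next to exon 5, the NFIB folds were 8.09 in CD1 and 11.6 in Mixed, the NFIA folds 3.64 and 4.78, and NfiX Mixed had 8.78. An NfiB library was highest at both, and NfiX Mixed was lowest at 741 kb and next to the highest at 771 kb. By mean percentile of fold the first of the 13 was a region of intron 2 at 407 kb (chr5:132135922-132136400, 60.3), followed by those at 771 kb (56.7) and 741 kb (53.4). At 407 kb the NFIA folds were 5.04 in CD1 and 5.56 in Mixed, the NFIB folds 7.58 and 7.63, and NfiX Mixed was highest at 8.12.

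The widest region of the locus was also without NfiX CD1. It spanned 1580 bp of intron 2, 468 kb in (chr5:132073749-132075328), and gathered 9 peaks of 5 libraries. NfiB CD1 covered it with 1 peak of 1525 bp, while NfiB Mixed had 3 peaks and both NfiA libraries had 2 each. Summits stood at 132073926 to 132073944 in 3 libraries and at 132074860 to 132074966 in 5. The summits thus formed separate groups about 1 kb apart inside 1 merged region, with a further NfiB Mixed summit at 132074460 between them.

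NfiB peaks alone made up much of the rest, and the NfiB lists are the longest of the 6 (36431 peaks in CD1 and 33283 in Mixed). Both NfiB libraries and no other had peaks in 10 regions, 16.7% of the locus against 9.73% of all regions, with folds of 3.11 to 8.21 and 12 to 27 fragments at the summit. The highest was in intron 6 (chr5:131513728-131514152), with 8.21 in NfiB CD1 and 6.41 in NfiB Mixed. A single library had a peak in 13 regions, of which 7 were NfiB CD1, 5 NfiB Mixed and 1 NfiX Mixed. These shares were lower at Auts2 than in the series. NfiB CD1 alone took 11.7% against 16.4% of all regions, NfiB Mixed alone 8.33% against 9.60%, and NfiX Mixed alone 1.67% against 2.69%. Peaks of the 13 regions with a single library had folds of 3.53 to 5.61 and 9 to 25 fragments. No region at Auts2 had a peak of NFIA and none of NFIB, a pattern of 3.99% of all regions.

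No listed peak lay at a start of an Auts2 transcript. The annotation gives 20 start sites, from the 5′ end to short transcripts that begin within the gene, and none of the 60 regions had its median summit within 1 kb of one. Within 1 kb of a start site of a protein-coding gene lay 10.1% of all regions of the series and 3.69% of those in the bodies of other long genes. Within 5 kb there were 4 regions at Auts2, where the shares were 19.9% and 9.03%. Of these 4, 1 was common (chr5:131530677-131531280, intron 6, 3.42 kb from the start of Auts2-215, folds of 4.77 to 12.9). The region of the body nearest to the 5′ end lay 7.77 kb from it, in intron 1, and was a peak of NfiB CD1 alone with a fold of 4.14. None of the 60 regions had a summit in an exon of Auts2 or of another protein-coding gene, where 7.56% of all regions and 4.17% of those in other long genes had one. These differences were not tested. The 3′-most, just past the gene end (chr5:131435464-131436081), had folds of 5.71 and 5.52 in NfiA, 7.74 and 5.96 in NfiB and 4.54 in NfiX Mixed.

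Neighbouring regions at Auts2 stood a median of 16.8 kb apart, and the common ones 42.98 kb apart, with the longest gap between common regions at 174 kb. At the 100 kb limit of the rule, the last region inside upstream was the one at 64.1 kb, and the first outside lay at 118 kb (chr5:132661317-132661623, with folds of 5.07 and 4.48 in the NfiB libraries and 4.56 in NfiA Mixed). On the 3′ side the first region outside belonged to Galnt17 (fold 2.57 in NfiB CD1).

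The local background at the peaks of Auts2 was above that of the list in each library. Its median over the peaks was 3.86 and 5.04 fragments for NFIA, 4.30 and 4.63 for NFIB and 3.71 and 3.58 for NFIX, CD1 first. The list medians were 2.85 and 3.84, 3.82 and 4.14, and 2.42 and 2.69. Among the common regions it reached 9.74 fragments at 943 kb, in NfiB Mixed, and 9.36 at 969 kb, in NfiA Mixed. A region of intron 4 without NfiX CD1, 724 kb in (chr5:131819178-131819834), reached 9.74 in NfiB Mixed as well. The fold divides by this background, so at 969 kb 127 fragments in NfiB CD1 gave a fold of 12.7 and at 897 kb 98 fragments gave 17.1. What the authors' background was computed from is not given in the sources used here, and its part in the fold was not tested.

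**Figure D5:**
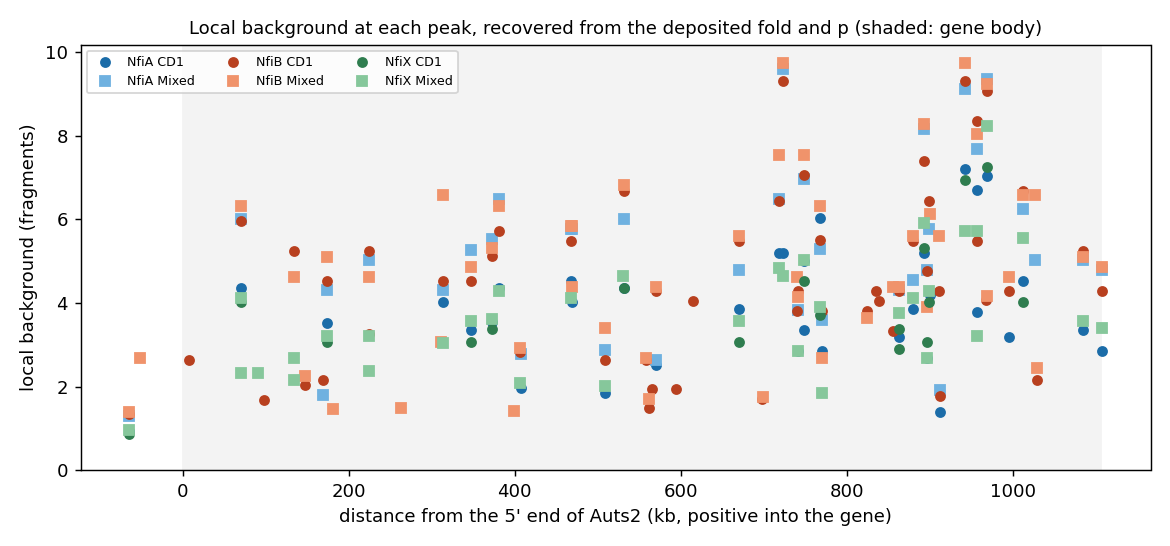
Local background at each peak of the locus (vertical axis, fragments) against distance from the 5′ end of Auts2 (horizontal axis, kb), by library, with the gene body shaded. The highest points reach 9.74 fragments, and the 6 points of the common region upstream lie at 0.856 to 1.39.

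On either side of Auts2 the counts differed. Galnt17, which encodes a glycosyltransferase and is the next gene on the 3′ side, had 20 regions in a body of 436 kb, 8 of them common, or 18.3 common regions per Mb against 13.6 in Auts2. A330070K13Rik beyond it had 0 regions. On the 5′ side the nearest protein-coding gene, Castor2, lies 1556 kb away. Castor2 had 8 regions, 2 of them common, all counted by the nearest TSS, with 0 in its body. Rcc1l next to it had 0 regions.

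Partners of AUTS2, a list of 16 genes, had regions in 12 cases and common regions in 5, where 47.2% and 12.9% of 21951 protein-coding genes did. The paralog Fbrsl1 had 5 regions, 1 common (chr5:110466519-110467205, folds 4.35 to 7.84), and the paralog Fbrs had 2, none common. Of the Polycomb members, Rybp had 20 regions, 4 of them common (the strongest at chr6:100196957-100197584, folds 5.96 to 12.8). Pcgf3, Pcgf5, Rnf2 and Yaf2 had 1 or 2 each, none common, and Ring1 had 0. In the Rac pathway, the exchange factor gene Dock1 had 23 regions, 3 common (chr7:135083332-135083805, folds 6.07 to 18.8), its cofactor Elmo2 had 4, 2 common (chr2:165288225-165289082, folds 7.03 to 16.3), and the exchange factor gene Prex1 had 15, 1 common (chr2:166632231-166633406, folds 4.55 to 10.7). Rac1 itself had 0. Csnk2a2, a catalytic subunit of casein kinase 2, and Ep300, which encodes p300, had 1 each, none common, and Csnk2a1 and Csnk2b had 0. The gene bodies ranged from 3.89 to 503 kb and a longer gene has room for more regions, so these counts say nothing of the list as a whole.

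Among the protein-coding genes with 20 or more regions, those whose shares of regions per library were most like the 55.0%, 56.7%, 88.3%, 81.7%, 26.7% and 55.0% of Auts2 (NFIA, NFIB, then NFIX, CD1 first in each) were Rybp, Dab1, Tenm2, Sez6l and Reln. The root mean squared difference over the 6 libraries was 3.19 percentage points for Rybp, 3.73 for Dab1, 4.01 for Tenm2, 4.61 for Sez6l and 4.92 for Reln, against a median of 12.8 over the genes compared. Dab1, which encodes an adaptor of Reelin signalling, had 36 regions with shares of 55.6%, 63.9%, 88.9%, 77.8%, 30.6% and 55.6%. Tenm2, a teneurin gene, had 50 regions with 56.0%, 56.0%, 88.0%, 72.0%, 26.0% and 54.0%. Rybp and Sez6l had 20 regions each, so that 1 region moves a share by 5 percentage points.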

How the data were processed

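ChIP-seq peaks of 6 libraries in granule neuron progenitors were analysed. The submitters' processing notes list Bowtie2 2.2.6, SAMtools 1.4.1 and MACS2 2.1.0, with mm10 as build. Which control, filters and threshold the peak calling used is not given in the sources used here. Each library has 1 deposited list of 7497 to 36431 peaks. Its fold, a ratio over local background, and its −log10 p and −log10 q were made by the authors. The deposited integer score was not used, and the deposited summit offset, an other kind of value, gave positions. Read totals were not analysed here. Depth was judged from the whole fragment count and background that, with a Poisson tail, return the authors' fold and p. Such a pair was found for 100% of peaks within 0.002 on the −log10 scale. The list median was 21 to 28 fragments at the summit.

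Regions, the nearest TSS and genes came from Python 3.11.15 (pandas 2.3.3, scipy 1.17.1) and GENCODE mouse release M21, whose build matches. Exons are numbered by Auts2-207, the longest of 20 transcripts. The steps were tested on simulated data. No test across libraries was made: the rule uses the peaks, and each factor has 2 libraries. Named genes are Auts2, the 5 most like it, 2 neighbours on each side and the partner list. Locus, lists and rules were chosen with earlier results of these data known. Motif search was limited to annotated exons, since no genome sequence was used. No promoter sequence was matched to Auts2.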

Additional observations from a re-analysis of the deposited data

How the results depend on the processing

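Of 108 recomputed values, 94 stayed close to those reported, the counts within 1.5 times. Among the 94 were all values of the motif share, which could not move. They rested on 1 readable region that held neither motif, and so were 0 in every setting, whatever the window width. Merging windows around summits, peaks with −log10 q of 5 or more, membership by any overlap, by starts of protein-coding transcripts or by the gene body alone, and motif windows of another width moved none of the values computed under them. Cutting each list to its 7497 strongest peaks left 25 regions at Auts2, 9 of them common, with 20 and 19 peaks in the NfiB libraries, 13 and 15 in the NfiA libraries (CD1 first) and 17 in NfiX Mixed, placed Auts2 at rank 2 for common regions and raised its density of regions to percentile 98.3 of long genes. With genes of 200 kb or more as the comparison, the density was at percentile 90.1 and that of common regions at 95.9, against 95.6 and 99.1 in the main comparison. Leaving out 1 library at a time gave 55 to 60 regions, 16 to 29 common regions, a common share of 26.7 to 48.3%, ranks of 1 to 2, and percentiles of 94.8 to 96.1 and 98.7 to 99.1. The upper count, the upper share and rank 2 came without NfiX CD1, the shortest list, whose peaks every common region needs. The rank was added as a measure after the data were seen. No paired analysis was possible because each value is a count, share or rank that comes from no test, so there was no fit to which a replicate block could be added. Regions with a peak in 1 library had 9 to 25 fragments, with a median of 13, where the list medians were 21 to 28. The weakest of them are near the limit of what these lists can show, and absence from a list is not absence of binding.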
